A study of Mus musculus with 8 samples.

Results

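Brevican (*Bcan*) and the molecules that lie around it in the extracellular matrix of the brain were measured in the cortex of S1/2-/- and WT mice. The genes were chosen by symbol, as *Bcan*, *Ncan*, *Vcan*, *Tnc*, *Tnr*, *Hapln1*, *Sparc*, *Sparcl1* and *Agrn*, with the differences between genotypes and times on these same arrays already known and *Bcan* in the lead. Their differences are therefore given as a description that supports nothing by itself. Of the 9 genes, 8 are on the array, with 12 of its 12422 probe sets (sets of short oligonucleotides whose intensities are condensed to 1 signal), and *Tnr* was not analysed here. A limit was set at the 40th percentile of mean log2 signal, and the 8 probe sets that reached it, which stand for *Bcan*, *Ncan*, *Vcan*, *Sparc*, *Sparcl1* and *Agrn*, were tested among 7453 probe sets. Both probe sets of *Tnc*, the only one of *Hapln1* and the second of *Ncan* lay below that limit, and their values come from a fit without a limit.

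Cortical tissue was taken from 8 mice with 1 array each, as 2 S1/2-/- mice at ZT16, 2 S1/2-/- mice at ZT4, 2 WT mice at ZT16 and 2 WT mice at ZT4, ZT (zeitgeber time) counting the hours from lights on in a cycle of light and dark. All groups were C57/bl6 mice, 4 months old in the sample labels. The S1/2-/- mice lack SHARP1 (*Bhlhe41*) and SHARP2 (*Bhlhe40*), which are basic helix-loop-helix repressors of transcription, as constitutive null mutants, and the sources name no other treatment of any group. The tissue came from coronal slices that cover part of the cortex, and a signal of undissociated tissue cannot tell fewer cells of a type from less RNA per cell.

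Brevican, neurocan and versican are lecticans, proteoglycans with chondroitin sulfate chains. They bind hyaluronan at one end, where link proteins such as HAPLN1 fasten them, and tenascins at the other. In adult cortex this network fills the space between cells and condenses into perineuronal nets around many interneurons. Brevican is made by astrocytes and by cells of the oligodendrocyte lineage as well as by some neurons, and part of it is cut by proteases of the ADAMTS family.

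The promoter of *Bcan* is shown because it is the 1 gene of these with a called difference between the genotypes and the missing proteins bind DNA at E-boxes. It was taken from RefSeq and lies at chr3:88000307-88000606 of GRCm38.p6, on the minus strand, and covers 250 bases before the annotated start of the gene and the first bases after it. Capitals mark matches to CACGNG, a motif bound by related repressors of the Hes and Hey family, which read CCCGTG here because they lie on the opposite strand.
Bcan promoter: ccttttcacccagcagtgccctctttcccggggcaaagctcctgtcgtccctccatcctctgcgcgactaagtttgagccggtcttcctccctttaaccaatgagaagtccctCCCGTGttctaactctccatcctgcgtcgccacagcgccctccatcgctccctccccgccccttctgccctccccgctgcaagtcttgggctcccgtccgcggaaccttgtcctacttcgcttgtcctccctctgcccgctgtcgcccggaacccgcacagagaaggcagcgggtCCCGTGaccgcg
This stretch has 64.0% G and C, 2 matches to CACGNG and 0 to the general E-box CANNTG, on both strands. Among all 32851 promoters of this length, 27.5% hold CACGNG, 72.3% hold CANNTG and 7.2% hold CACGTG, the E-box of clock genes, which is contained in both other motifs. The promoters of 7 measured genes were matched, and none of them holds CACGTG. The general motif CANNTG is present for 5 of the 7 genes, *Agrn*, *Ncan*, *Sparc*, *Tnc* and *Vcan*, and CACGNG for *Bcan* and *Tnc*. More than 1 promoter was matched for *Agrn* and for *Tnc*, and a match in any of them was counted. In *Agrn* CANNTG, and in *Tnc* CACGNG, is not in every promoter. The shares over all promoters count each promoter singly. A match is a description of these letters, and nothing about binding was measured. *Sparcl1* was not matched.

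*Bcan* was higher in the S1/2-/- cortex at both times of day. The first probe set for *Bcan* (92700_at) gave signals of 3814 and 3796 at ZT16 and of 2938 and 2930 at ZT4 in S1/2-/- mice, against 2011 and 2332 at ZT16 and 1706 and 1883 at ZT4 in WT mice. All 4 S1/2-/- mice lay above all 4 WT mice, and the 4 groups fell in the order S1/2-/- at ZT16, S1/2-/- at ZT4, WT at ZT16 and WT at ZT4 with no overlap between any neighbours. The mean difference between the genotypes over both times was 0.76 on the log2 scale (standard error 0.08 from limma, 4 S1/2-/- and 4 WT mice), which is 1.70-fold. The difference was 0.81 (standard error 0.11) at ZT16 and 0.71 (standard error 0.11) at ZT4.

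A call required a change of more than 1.5-fold and an adjusted p under 0.05 in limma, with Benjamini-Hochberg adjustment over the 7453 tested probe sets. *Bcan* (92700_at) was the only one of the 8 tested probe sets of these genes to be called, and only in the mean of both times, where 0.215% of all tested probe sets were called higher in S1/2-/- mice. It had the rank of 2 among the 7453 by p. None of the 8 was called at ZT16 or at ZT4 alone, where 0.0134% and 0.0939% of all tested probe sets were called in either direction. The call depended on single mice, since it was lost without S1/2-/- ZT16 replicate 1 (difference 0.76) and without WT ZT4 replicate 1 (difference 0.73). Without WT ZT16 replicate 1 or without WT ZT16 replicate 2, *Bcan* was called at each time alone, with differences of 0.71 and 0.92 at ZT16 and of 0.71 in both cases at ZT4.

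A second probe set for *Bcan* (161996_f_at) had far lower signals of 204 and 127 at ZT16 and of 283 and 228 at ZT4 in S1/2-/- mice, against 64.1 and 48.2 at ZT16 and 136 and 82.2 at ZT4 in WT mice. It was higher in S1/2-/- mice within each time without overlap, but over both times the lowest S1/2-/- mouse lay below the highest WT mouse. The mean difference was 1.40 (standard error 0.31), 2.64-fold, and was not called. This probe set reached the limit of 6.79 for testing only through the S1/2-/- mice, whose mean log2 signal was 7.66, against 6.26 in WT mice, so a difference in this direction was favoured among those tested. The ending of its name marks a probe set that may also match other sequences of a family, and the annotation of the array gives it no transcript, so what it measures is less certain than for 92700_at. The 2 probe sets stand for 1 gene and are not independent of each other.

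**Figure D1:**
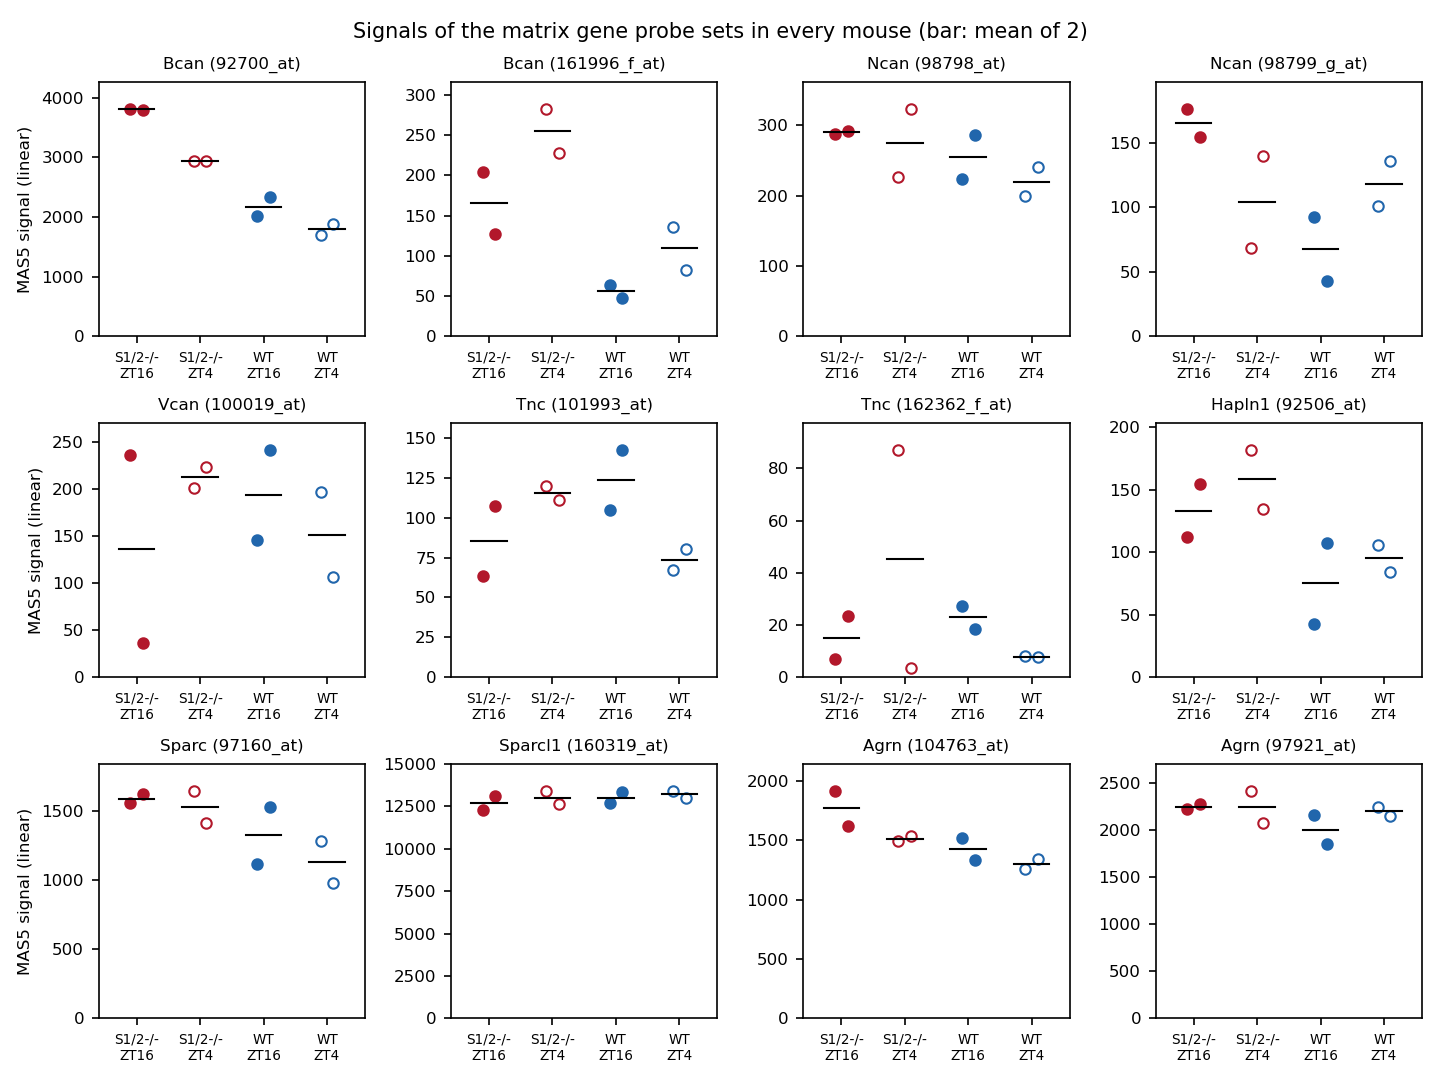
MAS5 signal on a linear scale (vertical axis, from 0, each panel with its own range) of the 12 probe sets in each of the 8 mice, with S1/2-/- in red, WT in blue, ZT16 filled and ZT4 open; the bar is the mean of 2 mice. In the panel of Bcan (92700_at) the S1/2-/- mice sit between 2930 and 3814 and the WT mice between 1706 and 2332.

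Neither *Ncan* nor *Vcan*, the other lecticans among the chosen genes, was called between the genotypes. *Ncan*, which encodes neurocan, gave signals of 287 and 292 at ZT16 and of 226 and 323 at ZT4 in S1/2-/- mice, against 224 and 286 at ZT16 and 199.5 and 240.5 at ZT4 in WT mice with its tested probe set (98798_at). The genotypes overlapped, and the mean difference was 0.25 (standard error 0.18, 95% interval -0.16 to 0.66). It ranged from 0.12 without S1/2-/- ZT4 replicate 2 to 0.38 without S1/2-/- ZT4 replicate 1. The second probe set for *Ncan* (98799_g_at), below the limit for testing, gave 176 and 154 at ZT16 and 68.1 and 140.2 at ZT4 in S1/2-/- mice, against 92.4 and 42.7 at ZT16 and 101 and 136 at ZT4 in WT mice. Here the S1/2-/- mice were higher at ZT16 only, by 1.39 (standard error 0.53), and the genotypes overlapped at ZT4.

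*Vcan*, which encodes versican, gave 236 and 36.0 at ZT16 and 201 and 223 at ZT4 in S1/2-/- mice, against 145 and 241 at ZT16 and 196 and 106 at ZT4 in WT mice. A single S1/2-/- mouse at ZT16 was far below the rest, and the mean difference of -0.23 (standard error 0.51) turned to 0.44 without it. Its 95% interval ran from -1.38 to 0.91 and so covers both a lower and a higher level in S1/2-/- mice.

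*Hapln1*, the gene of the link protein that ties lecticans to hyaluronan, lay below the limit for testing. Its signals were 112 and 155 at ZT16 and 182 and 135 at ZT4 in S1/2-/- mice, against 42.8 and 108 at ZT16 and 106 and 84.4 at ZT4 in WT mice. All 4 S1/2-/- mice lay above all 4 WT mice by a small gap, which closed when the arrays were scaled to a common median or by quantiles. The mean difference was 0.84 (standard error 0.36), and 0.51 without WT ZT16 replicate 1, the mouse at 42.8.

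*Tnc* encodes tenascin-C, a glycoprotein partner of the lecticans. Its first probe set (101993_at) gave 63.7 and 108 at ZT16 and 119.6 and 111 at ZT4 in S1/2-/- mice, against 105 and 142 at ZT16 and 66.9 and 80.1 at ZT4 in WT mice. The genotypes overlapped over both times, with a mean difference of 0.04 (standard error 0.32). The second probe set for *Tnc* (162362_f_at) gave signals between 3.51 and 87.1 in S1/2-/- mice and between 7.71 and 27.4 in WT mice, so that it carried little signal on most arrays.

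*Sparc* and *Sparcl1* encode secreted glycoproteins that astrocytes release and that are known to act on synapse formation in opposite ways. *Sparc* gave 1559 and 1622 at ZT16 and 1646 and 1411 at ZT4 in S1/2-/- mice, against 1119 and 1527 at ZT16 and 1286 and 982 at ZT4 in WT mice. The S1/2-/- mice were higher within each time without overlap, the mean difference was 0.36 (standard error 0.13), 1.28-fold, and it was not called. *Sparcl1*, also known as hevin, gave 12282 and 13111 at ZT16 and 13377 and 12631 at ZT4 in S1/2-/- mice, against 12701 and 13321 at ZT16 and 13413 and 12989 at ZT4 in WT mice. The genotypes overlapped throughout, and the mean difference of -0.03 had a 95% interval of -0.15 to 0.09.

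*Agrn* encodes agrin, a heparan sulfate proteoglycan best known for clustering acetylcholine receptors at the neuromuscular junction. Its probe set 104763_at gave 1915 and 1621 at ZT16 and 1492 and 1532 at ZT4 in S1/2-/- mice, against 1517 and 1329 at ZT16 and 1253 and 1345 at ZT4 in WT mice. The S1/2-/- mice were higher within each time, with a mean difference of 0.27 (standard error 0.09), which was not called. The other *Agrn* probe set (97921_at) lay between 2074 and 2413 in S1/2-/- mice and between 1846 and 2246 in WT mice, with a mean difference of 0.10 (standard error 0.08).

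**Figure D2:**
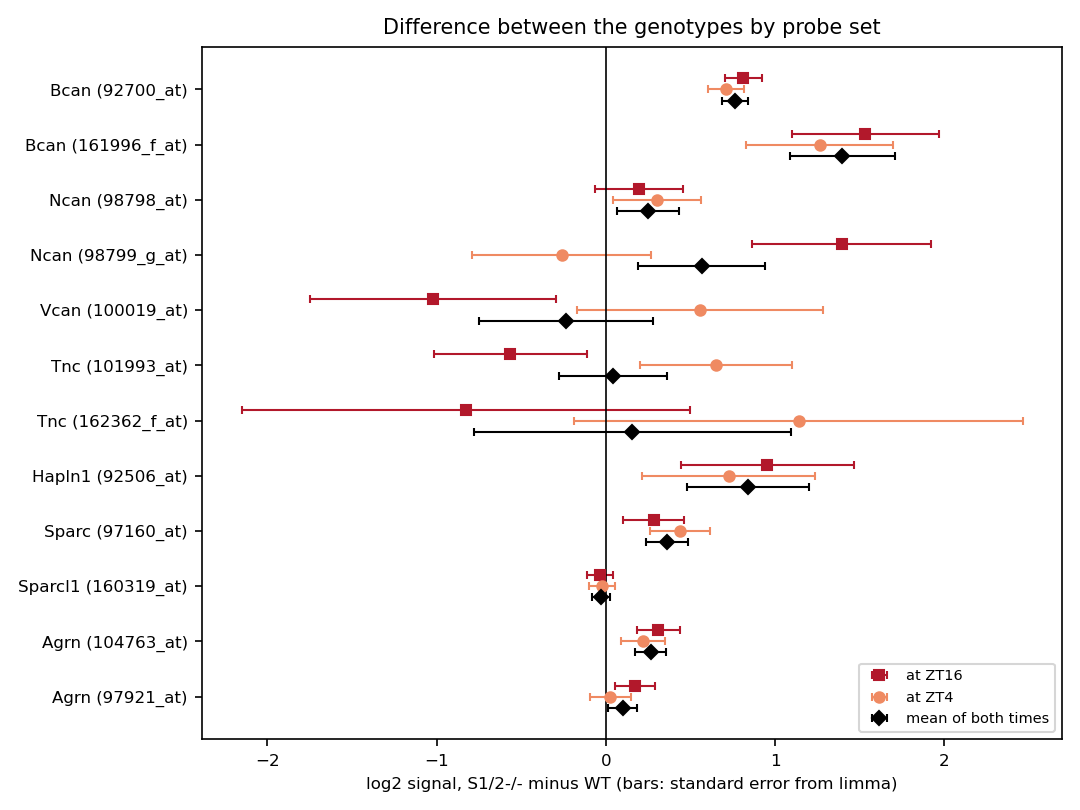
Difference in log2 signal, S1/2-/- minus WT (horizontal axis), of each probe set at ZT16 (squares), at ZT4 (circles) and as the mean of both times (diamonds), with the standard error from limma as bars. Both Bcan probe sets lie to the right of 0 at each time, by 0.71 to 1.53, and Sparcl1 lies close to 0.

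Counted over all 12 probe sets, 2 had all 4 S1/2-/- mice above all 4 WT mice, *Bcan* (92700_at) and *Hapln1*, and 0 had them all below. Over all 12422 probe sets 2.87% had the S1/2-/- mice all above and 2.78% all below. Within each time, 5 of the 12 had both S1/2-/- mice above both WT mice, namely both *Bcan* probe sets, *Sparc*, *Agrn* (104763_at) and *Hapln1*, and 0 had them below, where 4.83% and 4.92% of all probe sets did. The 12 probe sets stand for 8 genes that were chosen with these values known, so that nothing is read from these shares.

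The time of day was compared in the same fit. *Bcan* (92700_at) was higher at ZT16 than at ZT4 in both genotypes, by 0.37 (standard error 0.11) in S1/2-/- mice and 0.27 (standard error 0.11) in WT mice. Both mice at ZT16 lay above both at ZT4 in each genotype, and the mean difference of 0.32 (standard error 0.08) was not called (adjusted p = 0.340 from limma over all tested probe sets). The other *Bcan* probe set (161996_f_at) went the opposite way, by -0.66 (standard error 0.44) in S1/2-/- mice and -0.93 (standard error 0.44) in WT mice. Its mice at ZT16 lay below those at ZT4 in each genotype, with a mean difference of -0.79 (standard error 0.31, adjusted p = 0.458 from limma). The probe sets annotated to *Bcan* thus had the same direction between the genotypes and opposite directions between the times.

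Apart from *Bcan*, the difference between ZT16 and ZT4 over both genotypes was within 0.18 of 0 on the log2 scale for *Sparc*, *Sparcl1*, both *Agrn* probe sets and the tested one of *Ncan*, and -0.41 (standard error 0.51) for *Vcan*. Within both genotypes, 1 of the 12 probe sets had its ZT16 mice all above the ZT4 mice and 1 all below, both of *Bcan*, where 4.25% and 3.85% of all probe sets did. With the genotypes pooled, 0 of the 12 were without overlap in either direction, against 2.28% of all probe sets above and 1.91% below.

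None of the 8 tested probe sets was called between ZT16 and ZT4, with adjusted p of 0.340 to 0.889 from limma in the mean of the genotypes. Of all tested probe sets 0% were called in that mean, 0% in S1/2-/- mice and 0.0134% in WT mice. At an unadjusted p under 0.05, 398 were higher and 301 lower at ZT16 in the mean. The difference between the genotypes in this comparison was not called for any of the 8 (adjusted p = 0.912 to 0.988 from limma) and for 0% of all tested probe sets, of which 204 and 220 had an unadjusted p under 0.05 in either direction. For *Bcan* (92700_at) it was 0.10 with a 95% interval of -0.24 to 0.44.

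**Figure D3:**
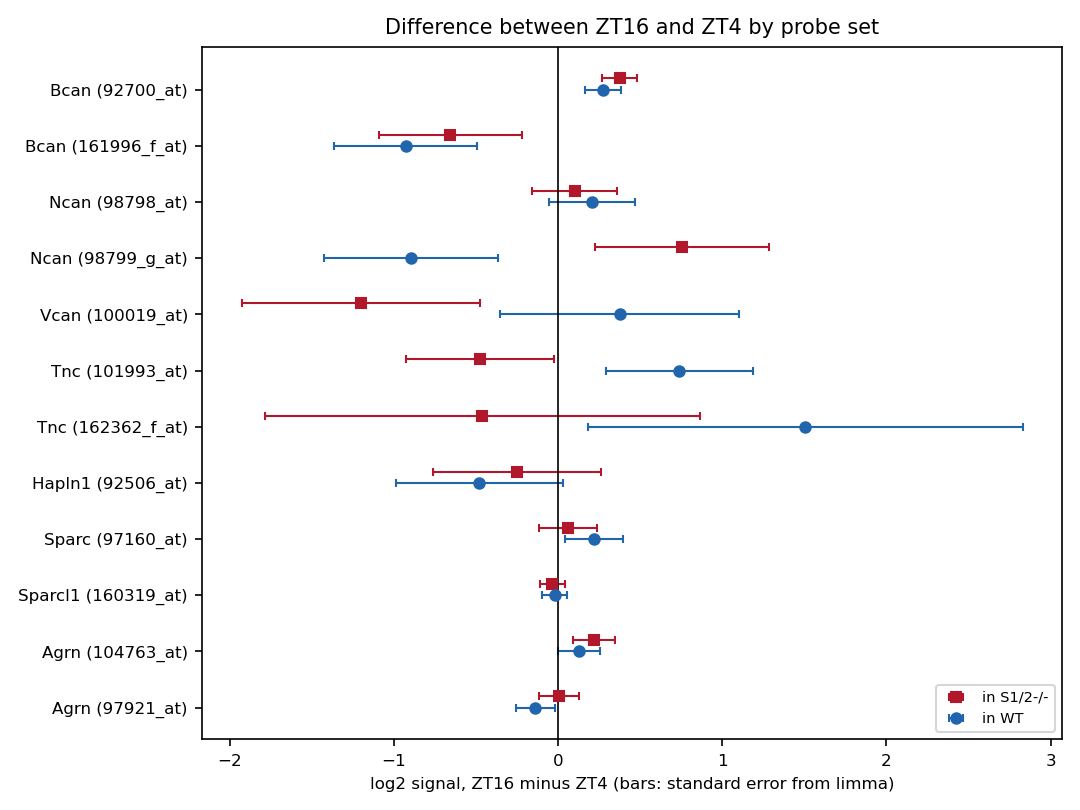
Difference in log2 signal, ZT16 minus ZT4 (horizontal axis), of each probe set in S1/2-/- mice (red squares) and WT mice (blue circles), with the standard error from limma as bars. Bcan (92700_at) lies to the right of 0 in both genotypes, at 0.37 and 0.27, and Bcan (161996_f_at) to the left, at -0.66 and -0.93.

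Markers of oligodendrocytes were also higher in S1/2-/- mice. Of the genes that mark these myelin-forming cells, 7 of 7 tested were higher, 4 of them called, with a median of 0.68, where the median of all 5690 tested genes was -0.001 and 49.8% were higher. *Cldn11*, a tight junction protein of myelin, was 1.02 higher (standard error 0.09, adjusted p = 0.00491 from limma) and *Mal* 0.68 higher (standard error 0.08, adjusted p = 0.00930 from limma). The summed signal of 8 oligodendrocyte markers was 26040 to 29580 in S1/2-/- mice and 16850 to 22900 in WT mice, without overlap. These 8 include *Cnp*, which lay below the limit for testing and went the other way, by -0.595. Its lowest signal was 12.06 in S1/2-/- mice and 13.2 in WT mice.

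Of the astrocyte markers, 8 of 11 were higher and 1 was called, the intermediate filament gene *Gfap*, at 1.15 (standard error 0.13, adjusted p = 0.00979 from limma). *Slc1a2* was 0.70 higher (standard error 0.19) and *Aqp4* 0.65 higher (standard error 0.19), neither of them called. At an unadjusted p under 0.05 from limma, 4 of the 11 were higher and 0 lower, and 3 of the 11 had a negative difference. Of all 7453 tested probe sets, 480 were higher and 443 lower at that threshold, together 12.38%. The markers were chosen with earlier results known, so nothing is read from this count. The median of the astrocyte markers was 0.21. Their summed signal was 44030 to 49870 in S1/2-/- mice and 42150 to 46970 in WT mice, with overlap. The brightest markers weigh most in such sums. The 4 markers of oligodendrocyte precursors had a median of 0.07, 0 calls and sums of 2776 to 3148 in S1/2-/- mice and 2405 to 2987 in WT mice. Among them *Sox10* was 0.52 higher (standard error 0.10), not called, at 771.7 to 1042 in S1/2-/- mice and 581.9 to 686.3 in WT mice. *Pdgfra*, *Nkx2-2* and *Ptprz1* differed by 0.02, 0.12 and 0.01. Sums of cortical neuron markers were 59140 to 64430 in S1/2-/- mice and 65230 to 70530 in WT mice. Of the 8 genes 4 were higher and 4 lower, 0 were called, and their median was 0.02. The largest part of these sums was *Snap25*, at 35070 to 39060 in S1/2-/- mice and 40400 to 46760 in WT mice, a difference of -0.18 (standard error 0.06). The sums of parvalbumin interneuron, endothelial and meningeal markers overlapped between the genotypes over both times. Those of parvalbumin interneurons did not overlap within each time, and the direction was opposite. They were 11750 to 12610 in S1/2-/- mice and 11160 to 11500 in WT mice at ZT4. At ZT16 they were 10640 to 10720 in S1/2-/- mice and 11260 to 11820 in WT mice. None of these genes was called at either time.

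Striatal markers summed to 6874 to 11560 in S1/2-/- mice and 9900 to 14290 in WT mice at ZT16, with overlap. At ZT4 their sums were 8869 to 13420 in S1/2-/- mice and 3754 to 4308 in WT mice, without overlap. Choroid plexus markers, which rested on *Ttr*, summed to 141 to 201 in S1/2-/- mice and 3000.0 to 3395 in WT mice at ZT16, without overlap, and to 287 to 1760 in S1/2-/- mice and 133 to 438 in WT mice at ZT4, with overlap. The 8 cortical neuron markers were at 210.3 or more on every array, and no marker of these 9 lists was at 0 on any array. The part of these cell types and tissues in the higher *Bcan* signal was not tested.

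The genes whose signals ran most like those of *Bcan* (92700_at) over the 8 arrays were *Gfap* (Pearson r = 0.981), *Cldn11* (0.976), *Krt4* (0.976), *Sod3* (0.974) and *Grik5* (0.965), out of 6764 probe sets compared. *Gfap* gave 1378 and 1150 at ZT16 and 958 and 1057 at ZT4 in S1/2-/- mice, against 510.5 and 667 at ZT16 and 388 and 508 at ZT4 in WT mice. *Sod3*, an extracellular superoxide dismutase that binds heparan sulfate, gave 775 and 751 at ZT16 and 537 and 564 at ZT4 in S1/2-/- mice, against 362 and 528 at ZT16 and 308 and 379.8 at ZT4 in WT mice. Both thus shared the difference between the genotypes, which by itself gives a high r over these mice.

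For the other *Bcan* probe set (161996_f_at) the most alike were *Txnl1* (r = 0.951), *Kcmf1* (0.943), *Chpt1* (0.938), *Eps15* (0.938) and *Ctnna2* (0.931), none of which was among those of the first. The *Bcan* probe sets had an r of 0.537 with each other. With 92700_at, *Agrn* (104763_at) had an r of 0.844, *Sparc* of 0.767 and *Ncan* (98798_at) of 0.698, while *Sparcl1* had -0.410 and *Vcan* -0.233. These values describe 8 arrays that share the groups and carry no test.

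The wider matrix was read from 7 lists of 132 other genes, of which 84 are on the array and 56 were tested. Between the genotypes 36 of the 56 were higher and 20 lower in S1/2-/- mice, 0 were called, and their median was 0.09, beside -0.001 for all tested genes. Between the times 33 were higher and 23 lower at ZT16, and 0 were called.

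Enzymes that build chondroitin sulfate chains were higher for 3 of 4 tested genes. *Chst3*, a chondroitin 6-sulfotransferase, gave 294 and 369 at ZT16 and 294 and 300.1 at ZT4 in S1/2-/- mice, against 151 and 296 at ZT16 and 59.6 and 222 at ZT4 in WT mice, a difference of 1.00 (standard error 0.38) that was not called. *B3galt6*, whose enzyme builds the linker of these chains, differed by 0.37 (standard error 0.23). Of the hyaluronan network partners 2 of 13 were tested. *Hyal2*, a hyaluronidase gene, differed by -0.51 (standard error 0.39) between the genotypes and by 0.44 (standard error 0.39, adjusted p = 0.748 from limma) between ZT16 and ZT4. *Ptprz1*, whose product phosphacan is a further chondroitin sulfate proteoglycan, differed by 0.01 (standard error 0.11) between the genotypes and by -0.36 (standard error 0.11, adjusted p = 0.392 from limma) between ZT16 and ZT4. The name of its probe set carries the ending that marks a possible match to other sequences of a family.

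Of proteases and inhibitors that act on the matrix, 4 of 8 tested were higher and 4 lower in S1/2-/- mice. *Timp2* and *Timp3*, inhibitors of metalloproteinases, had opposite signs, at 0.25 (standard error 0.09) and -0.36 (standard error 0.13), and *Serpini1*, the neuroserpin gene, was at -0.18 (standard error 0.06). Receptors and binding partners were higher for 10 of 14 genes, among them *Ptprs*, a phosphatase that binds chondroitin sulfate, at 0.17 (standard error 0.07), and *Cntn1*, at 0.33 (standard error 0.13). The difference of *Cntn1* was 0.025 at ZT4 and 0.62 at ZT16, where the WT mice gave 2708 and 1733.

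Of the relatives of SPARC, 3 of 5 were higher in S1/2-/- mice, and 5 of 5 were higher at ZT16 than at ZT4 in the mean of the genotypes, but 4 of 5 in S1/2-/- mice and 4 of 5 in WT mice. *Spock2*, a testican that carries glycosaminoglycan chains, gave 9850 and 9135 at ZT16 and 5844 and 7531 at ZT4 in S1/2-/- mice, against 6916 and 7475 at ZT16 and 6580 and 6846 at ZT4 in WT mice. Its difference between the times was 0.31 (standard error 0.08, adjusted p = 0.354 from limma) in the mean, 0.52 in S1/2-/- mice and 0.10 in WT mice. *Spock1* differed by 0.20 (standard error 0.10) between the genotypes. Other proteoglycans were higher in S1/2-/- mice for 6 of 9 genes, among them *Gpc1*, a glypican gene, at 0.23 (standard error 0.12), and *Sdc4*, a syndecan gene, at 0.25 (standard error 0.15).

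Among other matrix glycoproteins 9 of 14 were higher. The laminin gene *Lamc1* gave 234 and 213 at ZT16 and 261 and 323 at ZT4 in S1/2-/- mice, against 159 and 172 at ZT16 and 57.9 and 93.1 at ZT4 in WT mice, and the matrilin gene *Matn2* gave 257 and 214 at ZT16 and 147 and 171 at ZT4 in S1/2-/- mice, against 304 and 327 at ZT16 and 330.0 and 330.6 at ZT4 in WT mice. Neither overlapped between the genotypes, with differences of 1.21 (standard error 0.24, adjusted p = 0.0940 from limma) and -0.74 (standard error 0.16, adjusted p = 0.127 from limma), and neither was called. The probe set of *Lamc1* is also of the family kind. Its mean log2 signal in WT mice lay just under the limit of 6.79 for testing. It reached that limit only through the S1/2-/- mice, so a difference in this direction was favoured among those tested.

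**Figure D4:**
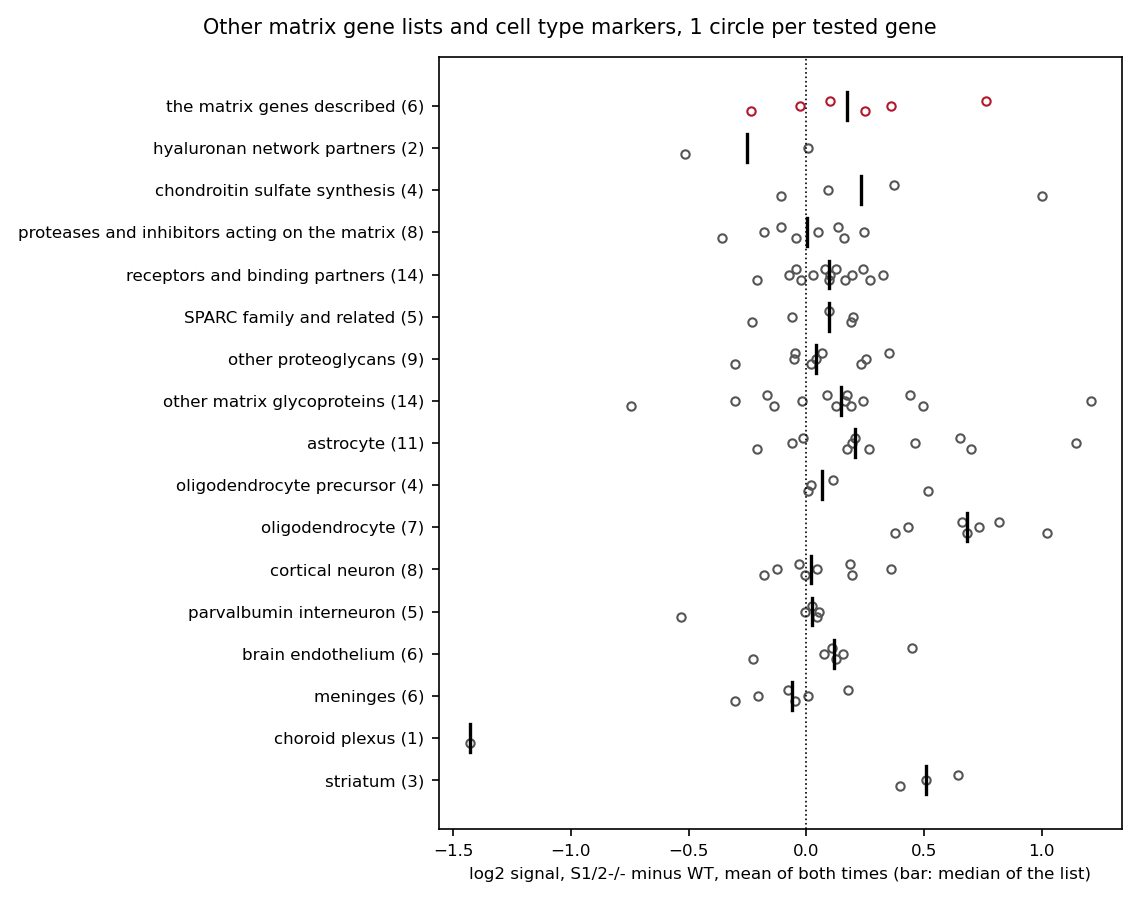
Difference in log2 signal, S1/2-/- minus WT, as the mean of both times (horizontal axis), of each tested gene (circles) in the matrix lists and the lists of cell type markers, with the number of genes in brackets and the median as a bar. The 7 oligodendrocyte markers all lie to the right of 0, with a median of 0.68, and the matrix lists lie on both sides of it.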

How the data were processed

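The authors deposited 1 table of intensity values, linear MAS5 signals of 12488 probe sets in 8 mice, and each column was matched to its mouse by title. The sources used here name no version of MAS5. Each deposited column has a mean of 500 after 2% is trimmed at each end, so that the scaling was already done. Here 66 control probe sets were left out, the 64 signals below 1 were set to 1, and log2 was taken. All arrays entered 1 fit of 4 group means with an intensity trend (limma 3.58.1, R 4.3.3; 4 residual degrees of freedom), with 7 comparisons. Differences are on the log2 scale. The steps were also run on simulated data with independent noise for each probe set. Those data held no effect shared by a whole array, so they do not cover the dependence on single arrays given below.

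Probe sets were named from the annotation of the array (10833 with 1 symbol, 396 with several, 1193 with none). Every probe set of the 9 genes is given. Of each matrix list, 2 or more genes among those with the largest moderated statistic between genotypes or times are named, and of the marker lists up to 3, with the brightest probe set for each gene. The genes and lists were chosen with earlier results of these data known. With 2 mice per group the number of arrays limits the precision. The study's text describes the samples as individual mice, so the spread includes that between animals. The alternatives were other filters, scalings, a pseudocount of 16, no trend, the replicate number as a block, ANOVA over time within a genotype, and each array left out in turn.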

Additional observations from a re-analysis of the deposited data

Results flagged for a closer look

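In 2 probe sets, both below the limit for testing, the ZT16 mice lay on opposite sides of the ZT4 mice in S1/2-/- and WT. The share of all probe sets with this pattern was not counted, so nothing is read from this number. The difference between the genotypes in the comparison of ZT16 with ZT4 was -1.22 on the log2 scale for *Tnc* (101993_at) and 1.65 for *Ncan* (98799_g_at). These were picked for that pattern, so the difference was not tested on other mice, and in the fit without a limit neither was called (adjusted p = 0.883 and 0.863 from limma). The other probe set of *Ncan* (98798_at) had -0.11 (standard error 0.37) in the same comparison.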

How the results depend on the processing

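Probe sets called by each setting were counted in 7 comparisons. Between the genotypes in the mean of both times there were 19, against 11 without a filter, 11 with median centring and 0 without an intensity trend. At ZT16 there was 1, against 0 without a filter, 6 with a filter at the 60th percentile and 0 without a trend. At ZT4 there were 7, against 12 with a filter at the 60th percentile, 11 with median centring and 0 without a trend. Between ZT16 and ZT4 in WT mice there was 1, against 0 without a filter, 4 with a filter at the 60th percentile, 5 with median centring, 0 without a trend and 0 by ANOVA. With the replicate number as a replicate block, there were 13 at ZT4, 0 at ZT16, 10 between the times in WT mice and 2 where the genotypes were compared in their difference over time. Deviations from the group means had correlations of -0.001 to 0.098 between arrays of equal replicate number. Pairing of the mice by number was thus not shown, and 2 mice per group cannot settle it.

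Leaving out 1 array gave 1 to 88 in the mean of both times, 0 to 154 at ZT16 and 0 to 14 at ZT4. Between the times it gave 0 to 35 in the mean, 0 to 1 in S1/2-/- mice and 0 to 100 in WT mice, and 0 to 17 for the difference between the genotypes over time. The counts of 88, 154, 35, 100 and 17 came without WT ZT16 replicate 1. The cause was not tested.

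Of the 12 probe sets, 1 in place of 2 had S1/2-/- mice all above WT mice with quantile normalization and with median centring. The mean difference of *Bcan* (92700_at) between the genotypes stayed between 0.69 and 0.82 in all settings run. It was not called without a trend or without S1/2-/- ZT16 replicate 1 or WT ZT4 replicate 1, and was called at ZT16 and at ZT4 with a filter at the 60th percentile, and at ZT4 with the replicate block. Its difference between the times was 0.17 to 0.38 in WT mice, and that of *Bcan* (161996_f_at) was -0.999 to -0.315 in S1/2-/- mice and -1.29 to -0.56 in WT mice. The sign of *Sparcl1*, *Vcan* and both *Tnc* probe sets was not stable.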

Other observations

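Genes near *Bcan* on chromosome 3 were looked up after the values were seen, and some of them were not measured here. *Nes*, the nestin gene next to *Bcan*, differed by 0.68 (standard error 0.45) between S1/2-/- and WT mice. The other tested genes up to 10 genes away, *Prcc*, *Hdgf*, *Mrpl24*, *Naxe*, *Mef2d* and *Cct3*, lay between -0.21 and 0.14, and none was called. Below the limit for testing, *Iqgap3* was at 0.55, *Sh2d2a* at 0.20, *Crabp2* at 0.18 and *Insrr* at -0.43. A cause shared by neighbouring genes was not tested. *Hapln1* and *Vcan*, which are neighbours on chromosome 13, differed by 0.84 and -0.23.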
